A study of Mus musculus with 6 samples.

Results

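The miR-467 and miR-669 miRNAs were examined in LLC1 cells, an established line from a mouse Lewis lung carcinoma, after growth in 2D or in laminin-rich extracellular matrix (lr-ECM 3D). Members were all mouse miRNAs on the array whose names start with miR-467 or miR-669, on both arms of the hairpin. This gave 11 of the 566 mouse miRNAs measured, 8 of them named miR-467 and 3 named miR-669, covered by 31 probes and 240 spots. The name ends in 3p for 3 members and in 5p for 6, and it gives no arm for miR-669n and miR-669a_v15.0.

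Each culture condition had 3 biological replicates with 1 array each. The 2D cells were grown in serum-supplemented DMEM on plastic. The lr-ECM 3D cells were embedded in the same medium with 0.5 mg/ml Geltrex, a laminin-rich basement membrane gel, above a layer of agarose. RNA was taken after 48 h in both conditions, and 100 ng per sample was labelled with Cy3 and hybridised to a 1-colour Agilent mouse miRNA array. All samples were unmodified cells of this 1 line, so they speak for 1 tumour line in culture.

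MiRNAs are cut from hairpins in longer transcripts, and either side of a hairpin, the 5p or the 3p arm, can be loaded into Argonaute to repress mRNAs that pair with the seed near its 5′ end. The miR-297, miR-466, miR-467 and miR-669 genes form a large rodent-specific array of repeated hairpins in an intron of Sfmbt2, an imprinted gene for a Polycomb protein that is expressed from the paternal copy in early embryos and placenta. Many of these hairpins are close copies of each other, so their mature products are alike and probes for one may also bind another. That part of the signals below was not tested.

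The placement in the Sfmbt2 cluster was checked against the RefSeq annotation of mouse assembly GRCm38.p6. It lists 47 miR-467 and miR-669 genes, of which 43 lie between the ends of Sfmbt2 on chromosome 2 and 4 lie elsewhere. Every gene copy of 10 members lies inside Sfmbt2. The exception is miR-669n, whose only copy lies on chromosome 3, where it overlaps Slc30a7, a gene for a zinc transporter. By this annotation miR-669n shares the name and not the locus. Its own values are given below, but the counts and means over all members and over the tested members include it. MiR-467a has 10 copies and miR-669a has 12 inside Sfmbt2, so the signal of either cannot be assigned to a copy. The other 5 Sfmbt2 hairpins have 1 copy each and lie along the gene in the order Mir669b, Mir467c, Mir467b, Mir467e, Mir467d.

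The RefSeq table of mature miRNAs held the sequence of 1 of the 11 members, miR-669n. It is shown with its precursor because it is the member outside Sfmbt2. Capitals in the mature form mark the seed, bases 2 to 8, and capitals in the hairpin mark the mature form at bases 4 to 23 of 54.
mmu-miR-669n, chr3:115979905-115979924, plus strand: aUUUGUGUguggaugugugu
Mir669n hairpin, chr3:115979902-115979955, plus strand: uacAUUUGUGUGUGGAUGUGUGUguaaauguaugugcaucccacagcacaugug
G or U made up 90.0% of the bases of miR-669n, against a median of 54.5% over the 1679 mature miRNAs of the table, and 99.9% of the table had a lower share. Its seed, UUUGUGU, occurred in 1 mature miRNA of the table, miR-669n itself.

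The arrays differed in brightness. The mean raw signal over all miRNA probes was 21.4, 5.03 and 40.4 linear units on replicates 1, 2 and 3 of 2D culture, while the 3D arrays reached 49.9, 38.7 and 37.8. The lowest raw signal well above background was similar on all arrays, 22.1 to 29.7, so after scaling the dim 2D replicate 2 had the highest detection limit. The conditions were hybridised on separate slides and scanned on separate days. Of the 2 slides 0 held both groups, so slide, scan day and culture condition cannot be told apart in any value below. Among markers of cell identity, 0 of 6 epithelial miRNAs (the miR-200 family with miR-141 and miR-429, and miR-205) were well above background on any array, although the line is labelled a lung carcinoma. The mesenchymal miR-199a-3p, miR-199a-5p and miR-214-3p were detected on all 6 arrays, and limma called 0 of these 3 between the conditions, with 1 at an unadjusted p under 0.05 both there and by the methods' t-test. Of the markers of blood cells, liver and neurons on the array 0 of 3, 0 of 1 and 0 of 2 were detected on any array. Of the muscle markers 1 of 3, miR-206-3p, was detected on an lr-ECM 3D array.

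Detection of the members was compared first. A miRNA counted as detected on an array where at least 50% of the spots of its brightest probe carried the software's flag for signal well above background. The number of detected members was 0, 0 and 0 of 11 in 2D culture, against 7, 6 and 6 in the 3D replicates 1, 2 and 3. The lr-ECM 3D mean was 6.33 ± 0.577 (SD, n = 3) against 0 ± 0 in 2D, with p = 0.1 in a two-sided exact permutation test, which cannot give a smaller p for 3 against 3. Detection over all 566 mouse miRNAs was also higher in lr-ECM 3D. It was 13.3%, 8.48% and 17.8% on 2D replicates 1, 2 and 3 and 26.7%, 21.2% and 23.9% on the 3D replicates. The 6 members detected on every lr-ECM 3D array and on no 2D array were mmu-miR-467b-3p, mmu-miR-467d-3p, mmu-miR-467e-3p, miR-669a_v15.0, miR-669b-5p and miR-669n. Over all 566 mouse miRNAs, 29 (5.12%) had this pattern. MiR-467c-5p was detected on lr-ECM 3D replicate 1 alone. MiR-467a-5p, miR-467b-5p, miR-467d-5p and miR-467e-5p were detected on 0 of 6 arrays. In RNA from a whole culture, more cells with a miRNA and more of it per cell cannot be told apart.

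**Figure D1:**
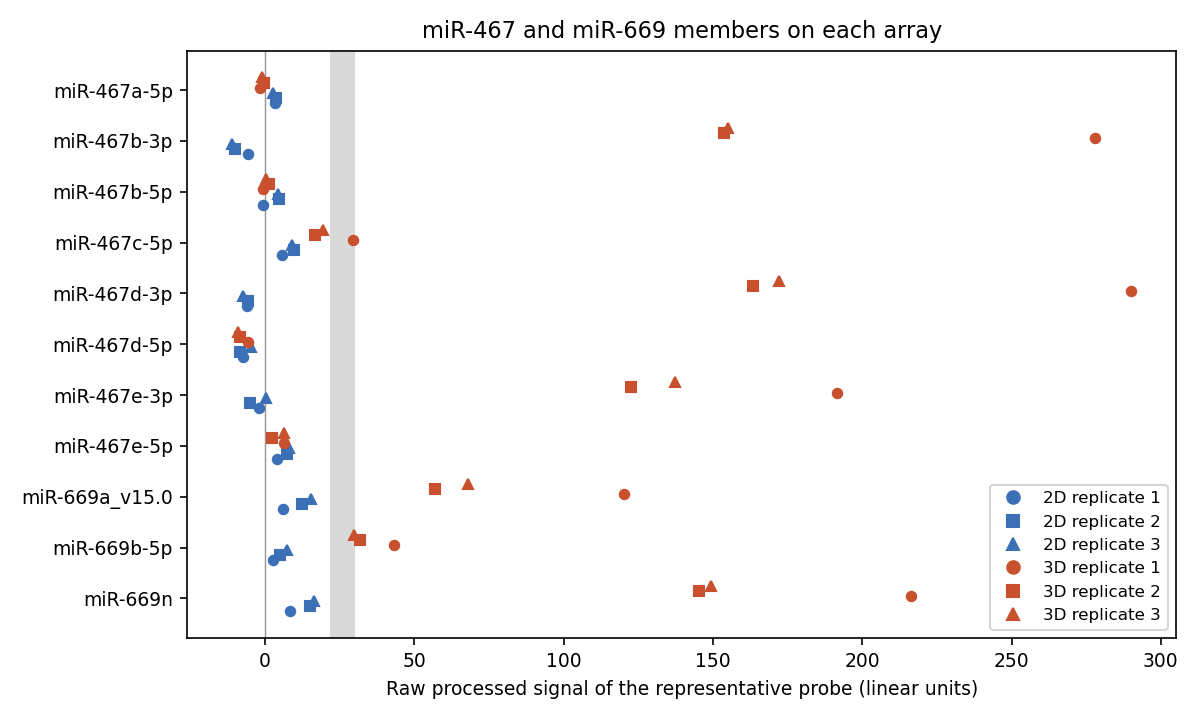
Raw processed signal of each member's representative probe in linear units (x axis) on the 3 2D arrays (blue) and the 3 lr-ECM 3D arrays (red), with symbols for the replicates and a grey band from 22.1 to 29.7 for the lowest raw signals well above background on the 6 arrays. The red points of miR-467b-3p, miR-467d-3p, miR-467e-3p and miR-669n lie between 123 and 290 while all blue points lie below the band.

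The probes for the 3p arms of 3 hairpins, Mir467b, Mir467d and Mir467e, went from background in 2D to clear signals in lr-ECM 3D. The raw signal of miR-467b-3p (probe A_54_P3632) was -5.61, -9.96 and -11.0 in 2D culture and 278, 154 and 155 under lr-ECM 3D conditions, in linear units after background subtraction. That of miR-467d-3p (A_54_P4420) was -6.19, -5.58 and -7.43 in 2D and 290, 163 and 172 in lr-ECM 3D. The third, miR-467e-3p (A_54_P3662), had -2.20, -4.98 and 0.271 in 2D and 191, 123 and 137 in lr-ECM 3D. For each of the 3 miRNAs the 2D arrays lay near or below 0, the level of the local background, and the lr-ECM 3D arrays were all detected. The negative control spots averaged 8.43, 8.36 and 7.94 on the 2D arrays, so the 2D signals of these probes lay below that level too.

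The scaled signals of these 3p arms were then tested. Each array was scaled to a common mean and signals were floored at 1 linear unit, so that the floor is 0 on the log2 scale. In 2D all 3 miRNAs stood at this floor on every array, 0 ± 0 (SD, n = 3). In lr-ECM 3D the mean log2 signal was 6.64 ± 0.27 (SD, n = 3) for miR-467b-3p, 6.74 ± 0.24 for miR-467d-3p and 6.30 ± 0.14 for miR-467e-3p. By limma with Benjamini-Hochberg adjustment over 120 tested miRNAs, the adjusted p was 8.72e-07 for miR-467b-3p, 6.41e-07 for miR-467d-3p and 5.07e-07 for miR-467e-3p. The fitted log2 changes equal the lr-ECM 3D means and depend on the floor, and the standard errors, 0.17, 0.16 and 0.12, hold no spread from 2D because every 2D value was at the floor.

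Folds of the representative probes were therefore bounded by the lowest signal well above background on each 2D array. Averaged over the 2D arrays, miR-467b-3p was at least 2.61-fold higher in lr-ECM 3D, miR-467d-3p at least 2.80-fold and miR-467e-3p at least 2.06-fold. The bounds rest on the 2D array used. Against 2D replicate 3, the most sensitive, they were 7.17, 7.69 and 5.64, and against 2D replicate 1 they were 3.23, 3.47 and 2.54. Against 2D replicate 2 the scaled lr-ECM 3D signals lay under the detection limit, so that array gives no fold. Without 2D replicate 2 the bounds rose to 4.81, 5.16 and 3.79, and without 2D replicate 3 they fell to 1.58, 1.69 and 1.24. A comparison that needs no scaling is open for 2D replicate 3, since its mean raw signal of 40.4 lay close to the 38.7 and 37.8 of lr-ECM 3D replicates 2 and 3. On raw signal, lr-ECM 3D replicates 2 and 3 reached 6.07 and 6.12 times the detection limit of 2D replicate 3 for miR-467b-3p, 6.46 and 6.80 times for miR-467d-3p and 4.85 and 5.42 times for miR-467e-3p.

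**Figure D2:**
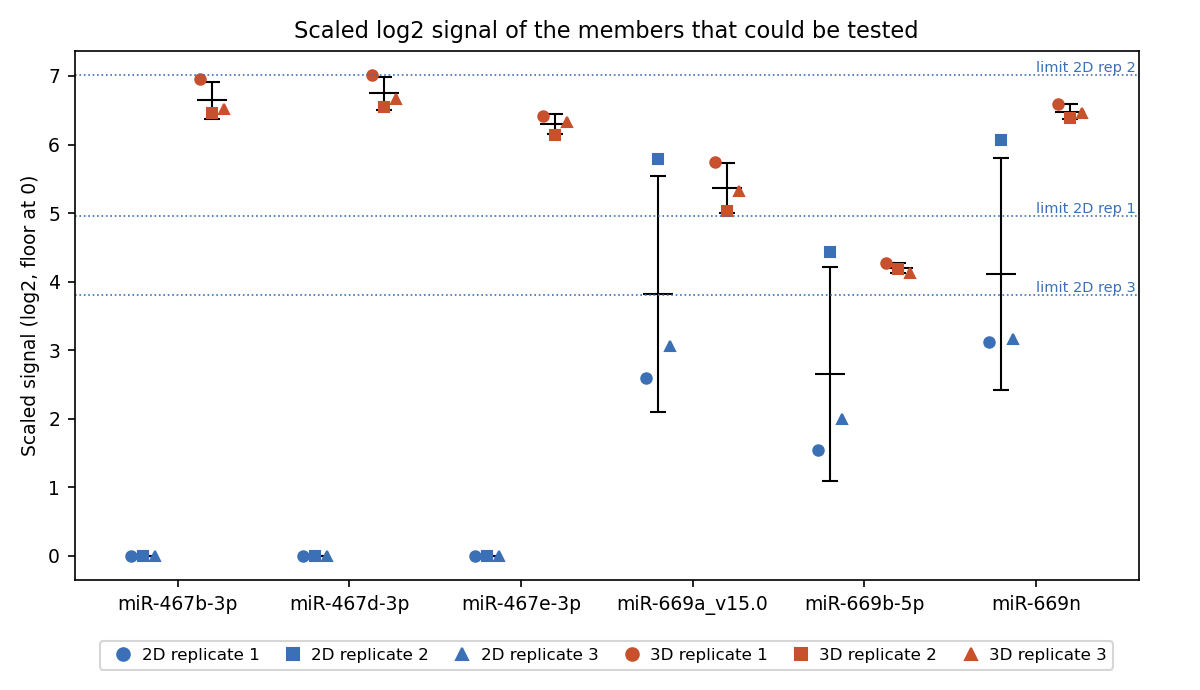
Scaled log2 signal (y axis, floor at 0) of the 6 members that could be tested, per array, in 2D (blue) and lr-ECM 3D (red), with black bars for the mean and SD of 3 arrays and dotted lines for the lowest signal well above background on each 2D array. The 3 miR-467 3p arms lie at 0 on all 2D arrays, and the miR-669 members have their highest 2D point on 2D replicate 2.

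Every probe of these 3p arms gave the same pattern of detection, but the probes differed in brightness. The mean raw lr-ECM 3D signal of the brightest probe over the dimmest was 1.96 for miR-467b-3p, 1.23 for miR-467d-3p and 1.29 for miR-467e-3p. The bounds above are those of the brightest probes and were not computed for the dimmer ones, where they would be lower. The 10 probes were each detected in all 3 lr-ECM 3D replicates and in 0 of the 2D replicates. On the 2D arrays their raw signals ran from -14.9 to 0.271, and 29 of the 30 probe and array pairs were below 0. The rank of a probe within its own array does not depend on the scaling. On the 2D arrays 0.117% to 50% of the 1712 miRNA probes had a lower raw signal than one of these 10 probes. On the lr-ECM 3D arrays the share was 90.9% to 95.6%. The 2D ranks are those of signals not well above background and are given as a description. The probes of 1 miRNA share their target and are not replicates of a condition.

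The opposite arms of the same hairpins were not detected. The 5p arms of Mir467b, Mir467d and Mir467e are measured by miR-467b-5p, miR-467d-5p and miR-467e-5p, and none of their probes was well above background on any of the 6 arrays. The representative probe of miR-467b-5p (A_54_P2924) had raw signals of -0.608, 4.67 and 4.28 in 2D and -0.815, 1.16 and 0.240 in lr-ECM 3D. That of miR-467d-5p (A_54_P3130) had -7.45, -8.25 and -4.62 in 2D and -5.80, -8.36 and -9.23 in lr-ECM 3D. That of miR-467e-5p (A_54_P3245) had 3.86, 7.23 and 7.88 in 2D and 6.32, 2.44 and 6.27 in lr-ECM 3D. The groups overlapped for these 3 representative probes. The other probe of miR-467b-5p (A_54_P2925) had raw signals of 1.40 to 3.97 in 2D and -1.11 to 1.01 in lr-ECM 3D, without overlap and lower in lr-ECM 3D, all under the detection limit. The 3p probes for these 3 hairpins showed a signal in lr-ECM 3D, while the 5p probes showed none in either condition. Which hairpins gave the 3p signal was not tested, since products of close copies may bind the same probes. Whether the 5p probes would have shown an equal amount of RNA was not tested, since probes differ in how well they bind.

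The remaining 5p members of the miR-467 name were miR-467a-5p and miR-467c-5p. MiR-467a-5p (A_54_P2773), the product of many copies, had raw signals of 3.32, 3.73 and 2.56 in 2D and -1.74, -0.446 and -1.20 in lr-ECM 3D, all under the detection limit and without overlap, with the lr-ECM 3D arrays below the 2D arrays. Its other probe lay between -2.96 and -0.345 in 2D and between -3.79 and -3.14 in lr-ECM 3D. MiR-467c-5p (A_54_P3129) had 5.64, 9.58 and 8.95 in 2D and 29.6, 16.7 and 19.4 in lr-ECM 3D. By this probe the raw signal in each 3D replicate exceeded all of the 2D ones, but after scaling the groups overlapped. The mean log2 signal was then 3.42 ± 1.72 (SD, n = 3) in 2D and 3.50 ± 0.23 in lr-ECM 3D. The other probe (A_54_P3128) had raw signals of 3.59 to 4.57 in 2D and 4.35 to 7.58 in lr-ECM 3D, with overlap, and was not detected on any array. MiR-467c-5p, detected on 1 array, was not tested. Over the 10 probes of the 5p members other than miR-467c-5p, raw signals lay between -8.25 and 9.55 in 2D and between -9.23 and 6.32 in 3D culture.

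By their representative probes, the 3 miR-669 members were detected on every lr-ECM 3D array. In 2D they had low positive signals under the detection limit, on arrays where the negative control spots averaged 8.43, 8.36 and 7.94. The raw signal of miR-669n (A_54_P2016) was 8.33, 15.1 and 16.2 in 2D culture and reached 216, 145 and 149 under lr-ECM 3D conditions. That of miR-669a_v15.0 (A_54_P1874) was 5.83, 12.4 and 15.2 in 2D and 120, 56.9 and 67.8 in lr-ECM 3D. MiR-669b-5p (A_54_P4377) had 2.79, 4.86 and 7.20 in 2D and 43.1, 31.8 and 29.7 in lr-ECM 3D, close to the detection limit. On lr-ECM 3D replicate 2 this probe had 3 of 6 spots flagged. The other miR-669b-5p probes, A_54_P2008, A_54_P2009, A_54_P2430 and A_54_P2431, were detected on 0, 1, 2 and 1 of the 3 lr-ECM 3D arrays. Before scaling, the groups did not overlap for miR-669n, miR-669a_v15.0 or miR-669b-5p. With no scaling the median log2 change over all tested miRNAs was 1.24. The share of all miRNAs separated before scaling was not counted, so nothing about any member is read from raw separation.

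Scaling made the groups overlap for 2 of the 3 miR-669 members, because it multiplied 2D replicate 2 by 4.43. The log2 signal of miR-669n was then 3.12, 6.07 and 3.16 in 2D and 6.59, 6.38 and 6.46 in lr-ECM 3D, still without overlap. That of miR-669a_v15.0 was 2.60, 5.79 and 3.07 in 2D and 5.75, 5.03 and 5.32 in lr-ECM 3D, so 2D replicate 2 lay above all lr-ECM 3D arrays. For miR-669b-5p it was 1.54, 4.43 and 1.99 in 2D and 4.27, 4.19 and 4.13 in lr-ECM 3D, again with 2D replicate 2 on top. None of the 2D values was well above background.

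By limma with Benjamini-Hochberg adjustment the change of miR-669n was 2.36 ± 0.84 (SE) on the log2 scale, with an unadjusted p of 0.0329 and an adjusted p of 0.17. The changes of miR-669a_v15.0 and miR-669b-5p were 1.55 ± 0.87 and 1.54 ± 0.77 (SE), with adjusted p of 0.31 and 0.274. By the bounds of the representative probes over the 2D arrays, miR-669n was at least 2.33-fold higher and miR-669a_v15.0 at least 1.08-fold. The bound of miR-669b-5p was under 1 and gives no fold. Without 2D replicate 2 all 3 were called higher, by 3.34 for miR-669n, 2.53 for miR-669a_v15.0 and 2.43 for miR-669b-5p on the log2 scale. The adjusted p in limma were 5.57e-08, 3.07e-05 and 2.70e-06. In that setting 25 (86.2%) of the 29 tested miRNAs detected on 0 2D arrays were called higher, and 21.7% of all tested. Nothing about the members is therefore read from these calls. The bound of miR-669n was then 4.29 and that of miR-669a_v15.0 1.98. Without 2D replicate 3 the bound of miR-669n fell to 1.41, and without 2D replicate 1 or 2D replicate 3 that of miR-669a_v15.0 was under 1 and gives no fold. Against 2D replicate 2 the scaled bounds of all 3 were under 1, so that array gives no fold. On raw signal against the detection limit of 2D replicate 3, lr-ECM 3D replicates 2 and 3 were at least 5.74 and 5.90 times higher for miR-669n. The same values were 2.25 and 2.68 times for miR-669a_v15.0 and 1.25 and 1.18 times for miR-669b-5p.

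In all, 6 of the 11 members passed the filter for the test, and they passed it through their lr-ECM 3D arrays. Of these, 3 were called higher and 0 lower at an adjusted p under 0.05 in limma and a fold of at least 2, where 10.8% of the 120 tested miRNAs were called higher. The tested members were all detected on 0 2D arrays, and of the 29 tested miRNAs that entered in this way 13 (44.8%) were called higher, a share near that of the members. Without 2D replicate 2 the members called rose to 6, and those called higher rose to 21.7% of all tested miRNAs and 25 (86.2%) of these 29. With no filter on detection, the log2 change of the 11 members was above 0 for 7, below 0 for 3 and 0 for 1. Their median was 1.54 against -0.07 over all 566 mouse miRNAs. In that setting 3 of the 11 members were called higher, and so were 28 of the 566 mouse miRNAs. The 3 below 0 were miR-467a-5p, miR-467b-5p and miR-467e-5p, which were detected on 0 of 6 arrays. After scaling, the groups did not overlap for the 3 miR-467 3p arms and miR-669n. Separation with 3D on the higher side was found in 20% of the 120 tested miRNAs and in 20 (69%) of the 29 detected on 0 2D arrays, and nothing about the members is read from it.

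The rank within the array does not rest on the scaling, and it is given for the miR-669 members as a description, since their 2D signals were not well above background. Of all miRNA probes, 85.5%, 93.2% and 86.8% had a lower raw signal than the probe of miR-669n in 2D culture, compared with 94.2%, 94.0% and 94.1% after 3D growth. For miR-669a_v15.0 the shares were 82.4%, 92.3% and 86.0% in 2D and 91.2%, 89.7% and 90.5% in lr-ECM 3D, so the groups overlapped. For miR-669b-5p they were 73.9%, 80.7% and 76.6% in 2D and 86.3%, 86.9% and 86.0% in lr-ECM 3D, without overlap. Ranks without overlap and with 3D on the higher side were found in 21.7% of the 120 tested miRNAs and in 21 (72.4%) of the 29 detected on 0 2D arrays.

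**Figure D3:**
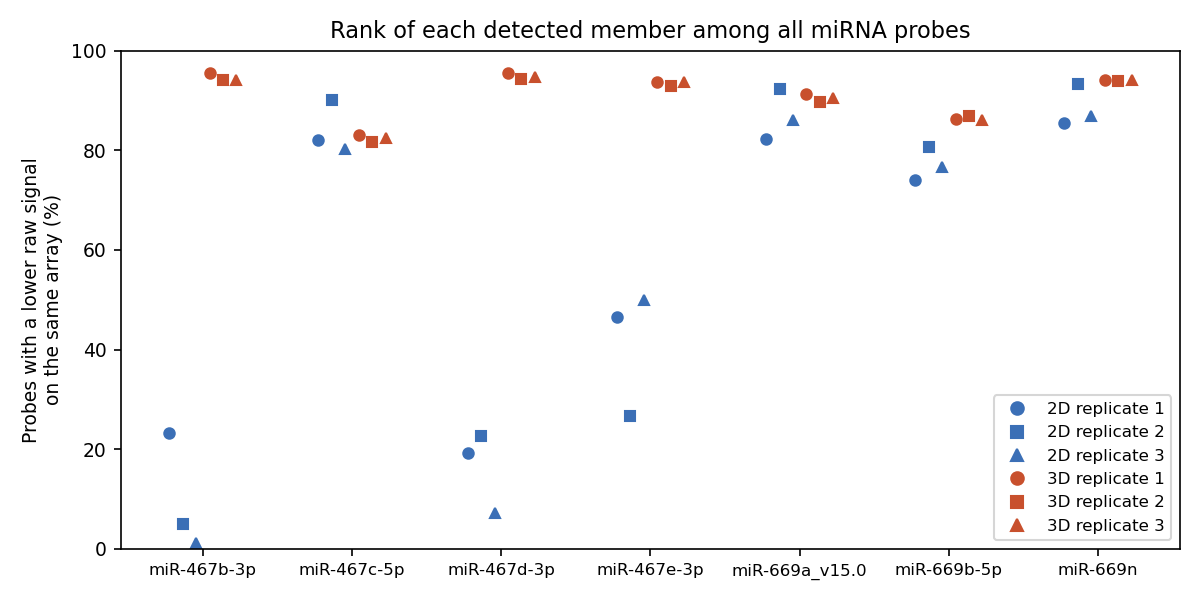
Percent of the 1712 miRNA probes of the same array with a lower raw signal than the representative probe (y axis) for the 7 members detected on any array, on 2D arrays (blue) and lr-ECM 3D arrays (red). MiR-467b-3p, miR-467d-3p and miR-467e-3p lie at 50% or lower in 2D and above 90% in lr-ECM 3D, while miR-669n stays between 85.5% and 94.2% on all arrays.

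The lr-ECM 3D arrays differed among themselves. After scaling, replicate 1 had the highest of the 3 lr-ECM 3D signals for each of the 6 tested members. It was highest for 34 (28.3%) of the 120 tested miRNAs. MiR-467c-5p was also highest there, but it was detected on that array alone, so this was favoured in advance. The share among the 29 tested miRNAs detected on 0 2D arrays was not counted, so nothing about the members is read from this order. Replicate 1 was also the brightest array and detected the most miRNAs, 151 against 120 and 135 on replicates 2 and 3. The part of its brightness in this order was not tested. Leaving it out left the same 3 members called, with changes of 6.49 for miR-467b-3p, 6.61 for miR-467d-3p and 6.24 for miR-467e-3p on the log2 scale. Within an array, the spots of a detected member probe varied with a CV of 2.88% to 35.6% and a median of 11.4% over 50 probe and array pairs.

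The neighbouring families of the Sfmbt2 cluster were counted for comparison. Of 13 miRNAs named miR-466 or miR-297 on the array, 6 were detected on all 3 lr-ECM 3D arrays and 0 2D arrays, and 6 were tested. Of these, 4 were called higher and 0 lower, namely miR-297a-3p, miR-466d-3p, miR-466f-3p and miR-466g. The other 2, miR-466c-5p_v15.0 and miR-466h-5p, had adjusted p of 0.276 and 0.242 in limma, and all 6 were called without 2D replicate 2. These 6 are among the 29 tested miRNAs detected on 0 2D arrays, of which 44.8% were called higher in the reported setting and 86.2% without 2D replicate 2, against 10.8% and 21.7% of all tested miRNAs. The cluster is known from early embryonic cells, so embryonic stem cell miRNAs (miR-290 to miR-295 and miR-302) were counted too. Of 21 on the array, 2 were detected on any array, miR-294-3p and miR-302c-3p, and 1 was tested. That miRNA, miR-302c-3p, had a log2 change of 3.79 and was not called by limma (adjusted p 0.111, unadjusted p 0.0194), but it was called without 2D replicate 2, with an adjusted p of 4.86e-05.

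The tested miRNAs whose log2 signal over the 6 arrays was most like the mean of the 6 tested members were miR-376c-3p, miR-207 and miR-485-3p, with Pearson r of 0.999, 0.982 and 0.975 among 114 other tested miRNAs. Each was detected on all lr-ECM 3D arrays and on 0 2D arrays. The 6 points share 2 slides, 1 per condition, and r is given as a description.

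The members were last compared across 21 alternative settings of scaling, background correction, floor, probe summary, samples and test. MiR-467b-3p, miR-467d-3p and miR-467e-3p were called higher in all 21 in which they could be tested. Their log2 changes ran from 1.81 to 7.55, 1.84 to 7.65 and 1.38 to 7.21, with the lowest values under normexp background correction, and their largest adjusted p were 0.00285, 0.00202 and 0.00285. The miR-669 members depended on the setting. MiR-669n was called in 7 of the 21 with changes of 1.20 to 6.95, miR-669b-5p in 7 with changes of 0.13 to 4.91 and miR-669a_v15.0 in 6 with changes of 0.59 to 5.74. The changes of these 6 members were above 0 in every one of the 21 settings. These members were tested because they were detected in lr-ECM 3D, and they were detected on 0 2D arrays, which favours a change above 0. For miR-467b-3p the change stayed at 6.64 whichever 2D array was left out, since its 2D values were at the floor. The settings also share the same arrays, so their agreement in sign and calls is not independent support.

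**Figure D4:**
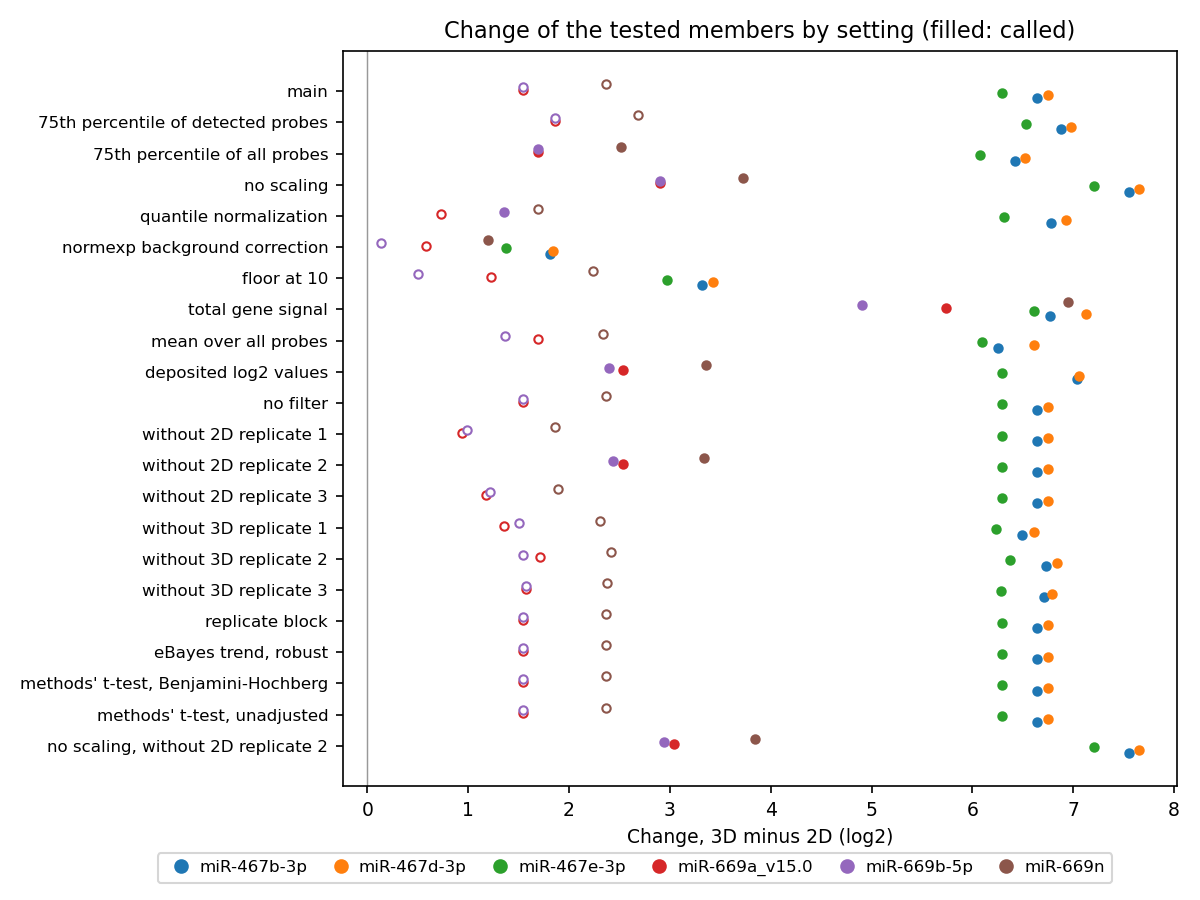
Log2 change, lr-ECM 3D minus 2D (x axis), of the 6 tested members under the reported setting (main) and 21 alternatives (y axis), with filled points for calls and open points for values not called. The 3 miR-467 3p arms are filled in every row, and the 3 miR-669 members are all filled without 2D replicate 2, with no scaling, with the 75th percentile of all probes, with the total gene signal and with the deposited log2 values.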

How the data were processed

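MiRNA was measured in LLC1 cells, 3 samples in 2D and 3 in lr-ECM 3D, grouped by the sample labels. Per the file headers, the deposited array files give the linear intensity of every spot, extracted with Agilent Feature Extraction 10.7.3.1 per the submitters' processing notes, with background subtraction, spatial detrending and no normalization between arrays. Other deposited columns are flags set by that software. A deposited table with 1 column per sample holds log2 values computed by the authors, equal to floored log2 intensities (floor 1) with 1 constant added per array (largest departure 0.049), as found from the values.

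Control spots and 190 to 369 outlier spots per array were left out, 0 spots were saturated, and the spots of a probe were averaged. Arrays were scaled linearly so that all had the mean miRNA probe signal of the 2D group, with factors of 1.04, 4.43 and 0.552 in 2D, and 0.447, 0.575 and 0.589 in lr-ECM 3D. The methods name scaling to the control mean, and this is 1 way to read them. Signals were floored at 1 and taken to log2. The probe with the highest mean log2 signal stood for its miRNA. Tests used limma 3.58.1 (lmFit, eBayes, two-sided; R 4.3.3) on miRNAs detected on every array of at least 1 group, with p-values adjusted by Benjamini-Hochberg over the 120 tested, and called where the adjusted p was under 0.05 and the fold reached 2. The methods set the same fold limit and name no adjustment of p. A bound sets the lr-ECM 3D mean against the mean, over 2D arrays, of the detection limit (lowest signal well above background) or, if higher, of the probe's own signal. Simulated data were used to check the steps. Alternatives changed the scaling, background correction, floor, probe summary, filter, samples or test, and normexp took median pixel signals.

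The members and lists were chosen with earlier results of these data known. Every member is accounted for, those detected on an array with each value, and the other lists as counts. The 3 miRNAs most like the members were named by Pearson r. MiRNA sequences and gene positions are those of RefSeq, GRCm38.p6. The array headers name another build, and no coordinates were moved between builds. Precision is limited by having 3 arrays per condition.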

Additional observations from a re-analysis of the deposited data

How the results depend on the processing

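The members called numbered 3 of the 6 tested in the reported setting. They numbered 6 with scaling to the 75th percentile of all probes, with no scaling, with the total gene signal and with the deposited log2 values, and 4 with quantile normalization (miR-669b-5p added) and with normexp (miR-669n added). The miRNAs called over the whole array rose from 14 to 24 with the 75th percentile of all probes, 26 with no scaling, 26 with the total gene signal, 26 with the deposited log2 values, 23 with quantile normalization and 32 with no filter. Leaving out 1 array in turn gave 3 to 6 members and 12 to 31 miRNAs called, both highest without 2D replicate 2. With no scaling and without 2D replicate 2 together, a setting chosen after seeing the data, the counts were 6 and 27. A filter on all 6 arrays left 48 miRNAs and none of the members; limma called 0 of them, with 7 at an unadjusted p under 0.05 and 0 of these at a fold of 2, and the methods' t-test gave 0 at that fold and its unadjusted threshold. The cause of these differences was not tested. The detected members per array differed by 6.33 in the reported setting, 5.67 with every spot flagged, 6.67 with the software's gene detection flag and 6 to 6.5 with 1 array left out.

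Over all tested miRNAs the median log2 change was -0.11 as reported, 1.24 with no scaling, 0.76 with the deposited values, 0.66 with the total gene signal, 0.41 with normexp and 0.21 with the 75th percentile of detected probes, so the changes of members under these settings stand on a shifted base. The replicate numbers did not pair the samples (correlations of same-numbered deviations -0.32, -0.37 and 0.16). With the replicate number as a block 12 miRNAs and the same 3 members were called. The methods' t-test called 17 miRNAs unadjusted and 12 after Benjamini-Hochberg adjustment, with the same 3 members in both. Depth is not defined for arrays; the detection limit of 2D replicate 2, a log2 of 7.02 after scaling, is the main limit on the folds.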
